A study of Mus musculus with 2 samples.

Results

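AP-1 is a family of transcription factors, and the values here describe the transcripts of 10 genes that encode its subunits or close relatives: Fos, Fosb, Fosl1 and Fosl2 (the Fos family), Jun, Junb and Jund (the Jun family), and Atf3, Batf and Maff. The genes were taken by name from tables of 54438 genes, with earlier results of these data known. All 10 were found, with 28 of the 137767 listed transcripts. The RNA came from flow-sorted mammary basal cells, as the labels call them, of wild type C57BL/6 mice 8 weeks old. It was amplified by Smart-seq II, which copies whole transcripts from few cells. How many mice or cells went into each library, and by which antibodies they were sorted, is not stated in the labels. Per its title the series concerns basal cells that carry Pdl1, the ligand of an inhibitory receptor on T cells, and basal cells that do not. It holds 2 libraries, here called W1 and W2 after their titles, and their labels are otherwise the same, so neither library was assigned to a Pdl1 class. All values therefore stand side by side for 2 single libraries, with no replicate, no test and no p-value, and a difference between the libraries is not a difference between Pdl1 classes.

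AP-1 proteins bind DNA as dimers through a basic region followed by a leucine zipper, and are counted among the bZIP factors for that reason. Jun proteins pair with each other or with Fos proteins, whereas Fos proteins need a Jun partner. Fos, Fosb, Jun and Junb are immediate early genes: growth factors, stress and the handling of tissue can switch them on within minutes, through kinase cascades that act on factors already bound to their promoters. Jund is as a rule more steadily expressed, and Fosl1 and Fosl2 (Fra-1 and Fra-2) often follow later in a response. In epithelia AP-1 takes part in proliferation, wound repair and keratinocyte differentiation.

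The shared feature that makes these genes 1 group is the DNA-contacting basic region, so its codons are shown for each member. The sequences are 27 bases of the coding strand of the GENCODE M21 transcript with the most reads (for Fosb, whose coding transcripts had none, its longest coding transcript). Capitals mark the first, the fifth and the ninth codon, whose residues were required by the search that located the stretch, so that their presence is no finding. The search also limited the fourth codon to alanine, serine or tyrosine and the eighth to cysteine or serine. The matching positions given below include all of these codons.
Fos: AATaagatggctGCAgccaagtgcCGG
Fosb: AACaagctggctGCAgctaagtgcAGG
Fosl1: AACaagctagcaGCTgctaagtgcAGA
Fosl2: AACaagctagctGCAgccaagtgtCGG
Jun: AACcgcattgccGCCtccaagtgcCGG
Junb: AACaggctggcgGCCaccaagtgcCGG
Jund: AACcgcatcgccGCCtccaaatgcCGC
Atf3: AATaaaattgctGCTgccaagtgtCGA
Batf: AATcgcatcgctGCCcagaagagcCGA
Maff: AACcgcggctacGCGgccagctgcCGC
Within these 27 bases Fosb and Fosl2 each matched Fos at 23 positions, Atf3 at 22, Junb at 21, and Fosl1 and Jun each at 19. Against Jun, Jund matched at 24 positions, Junb at 21, and Fos and Batf each at 19. Maff was the least like Fos, with 13 matching positions. No other stretch of this kind occurred in any of the 10 coding sequences.

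The promoters of 3 members are shown because these genes hold most of the counted AP-1 transcripts (Fos, Junb) or a known autoregulatory site (Jun). Each sequence is the 250 bases before the transcription start, from RefSeq on GRCm38.p6: chr12:85473640-85473889 on the plus strand for Fos, chr4:95052223-95052472 on the minus strand for Jun and chr8:84978749-84978998 on the minus strand for Junb. Capitals mark TGACG, the core of the cAMP response element, in Fos and Junb, TATAA in Fos, and in Jun TGACATCA, a form of the AP-1 site known to be bound by Jun with Atf2.
Fos promoter: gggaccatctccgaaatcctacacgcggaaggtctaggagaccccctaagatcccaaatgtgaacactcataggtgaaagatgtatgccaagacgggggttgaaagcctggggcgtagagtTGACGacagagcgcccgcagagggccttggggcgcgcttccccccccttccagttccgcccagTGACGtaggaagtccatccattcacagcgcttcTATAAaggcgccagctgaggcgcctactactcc
Jun promoter: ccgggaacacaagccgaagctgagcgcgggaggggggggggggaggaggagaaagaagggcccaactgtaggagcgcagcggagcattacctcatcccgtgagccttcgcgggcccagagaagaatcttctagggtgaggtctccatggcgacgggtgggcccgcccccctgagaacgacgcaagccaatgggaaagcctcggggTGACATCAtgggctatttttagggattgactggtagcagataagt
Junb promoter: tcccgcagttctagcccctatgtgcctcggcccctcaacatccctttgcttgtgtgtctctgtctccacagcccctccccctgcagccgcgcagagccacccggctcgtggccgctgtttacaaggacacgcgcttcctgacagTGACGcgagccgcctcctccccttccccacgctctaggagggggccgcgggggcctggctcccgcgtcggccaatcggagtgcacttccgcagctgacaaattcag
The same windows were searched in the 9 members with an entry (Fosl1 had none) and in all 32851 promoters of the table, on both strands except for TATAA, which was read on the coding strand only. TGACG was found in 6 members, Fos, Fosb, Junb, Atf3, Batf and Maff, and in 17.8% of all promoters. In Fos it began 129 and 66 bases before the start, with TATAA 33 bases before it. TATAA was in no other member and in 16.0% of all promoters. TGACATCA was in Jun and Maff and in 2.93% of all promoters, and the full element TGACGTCA, which contains the shorter TGACG, was in Maff alone and in 1.55% of all promoters. The consensus AP-1 site TGAGTCA was in none of the 9 windows and in 4.46% of all promoters. CCAAT was in Jun and Junb (33.8% of all promoters) and GGGCGG in 7 of the 9 members (32.7%). A match describes letters in these windows and does not show a bound site.

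The libraries differed in more than AP-1. The recovered depth was 3055840 counted reads in W1 and 3800030 in W2. Levels are given in TPM, reads per base of transcript scaled to the same total in each library, and summed over the listed transcripts of a gene. Of the labelled cell type's markers, Krt5, Krt14, Krt17, Acta2, Tagln, Cnn1 and Myl9 had between 0 and 37 reads in W1, and the summed level of the 10 basal and myoepithelial markers was 155 TPM in W1 and 40100 TPM in W2. The 11 endothelial markers summed to 4929 and 7.07 TPM, and 7 of the 9 at 1 TPM or more had 0 reads in W2. Of the basal list, only Itga6 was at a like level in both libraries (140 and 170 TPM), and Trp63, with 8 listed transcripts, had 0 reads in both. How reads shared between transcripts were counted is not stated, so the zeros of Trp63 do not show that its RNA was absent. Gm23935, a 57-base noncoding transcript, took 27.7% of TPM in W1 and 4.13% in W2. When it was left out of the total, the log2 of every TPM ratio, W1 over W2, rose by 0.41. Ratios of different members within 1 library are free of such scaling. Markers and scaling moved with the comparison of the libraries as a whole, and their part in the values below was not tested. In bulk RNA, fewer cells of a type and less RNA per cell cannot be told apart.

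By listed TPM, Fos, Junb and Jund were the most abundant AP-1 transcripts in both libraries, and Fosl1 joined them in W2. In W1 the order by TPM was Fos (2547), Junb (1741), Jund (1105), Fosl2 (229), Jun (197), Fosl1 (41.8), Batf (18.7), Fosb (11.0), Atf3 (1.33) and Maff (0.337). In W2 it was Fos (4295), Junb (2652), Fosl1 (1038), Jund (959), Jun (276), Fosl2 (80.7), Batf (42.9), Atf3 (9.91), Maff (0.502) and Fosb (0). Exact 95% intervals on the reads, which cover counting error only, did not overlap for any neighbours in the W1 order down to Atf3. In W2 the intervals of Fosl1 (1011 to 1065 TPM) and Jund (933 to 987) lay close to each other without overlapping. At the low end the intervals of Atf3 (0.575 to 2.62) and Maff (0.0408 to 1.22) overlapped in W1. Levels of different genes are also limited by how reads shared between transcripts were counted, as given below. With no replicates, whether neighbours differ beyond the spread between samples cannot be told.

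**Figure D1:**
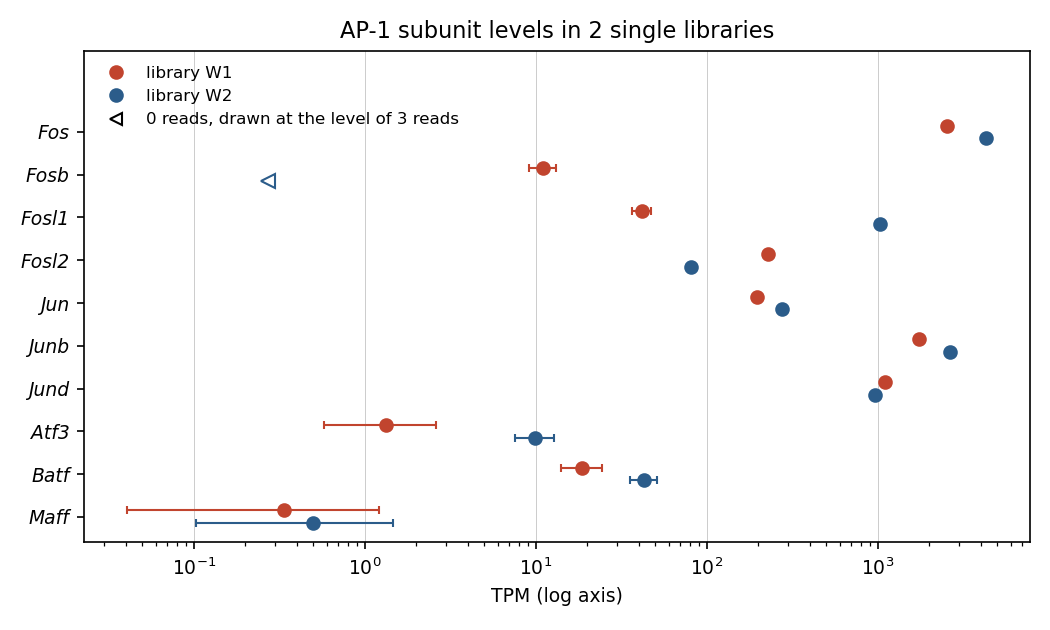
TPM of the 10 AP-1 genes (log axis) in library W1 (red) and library W2 (blue). Bars are exact 95% Poisson intervals on the recovered reads and are narrower than the point for genes with many reads, and the open triangle is a library with 0 reads, drawn at the level of 3 reads. Fos, Junb and Jund lie at the right in both libraries, while the points of Fosl1 lie far apart, at 41.8 and 1038 TPM.

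Among the Fos family, Fosl1 lay toward W2 and Fosl2 toward W1. Fosl1 (ENSMUSG00000024912.6, chromosome 19, 5447547 to 5455946, plus strand, GRCm38), which encodes Fra-1, stood at 41.8 TPM in W1 and 1038 TPM in W2. It was low in W1 and the third most abundant member in W2. The difference was 24.85-fold toward W2 (21.8 to 28.4 by counting error), the largest ratio among the 8 members with reads in both libraries and at least 1 TPM in 1 of them. The log2 ratio of TPM + 1, W1 over W2, was -4.60, and it lay between -4.90 and -4.11 under the other scalings, pseudocounts and transcript choices. Fosl1 has 1 of its 3 M21 transcripts in the tables, and its reads (236 and 5901) are rounded from values that did not come out whole with the M21 length.

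Fosl1 shares 1163 of its 2033 exon bases with Ccdc85b, a gene on the opposite strand that stood at 81.3 and 202 TPM. The labels name a stranded library kit, while no source at hand says whether the counting used strand, and without it the reads of the shared bases cannot be told apart. Ccdc85b, too, was higher in W2. When both strands are searched, 746 of the 1815 50-base sequences of Fosl1 occur in no other listed transcript.

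Fosl2 (ENSMUSG00000029135.10, chromosome 5, 32135801 to 32157842, plus strand), which encodes Fra-2, stood at 229 TPM in W1 and 80.7 TPM in W2. It was 2.83-fold higher in W1 (2.67 to 2.99), with a log2 ratio of 1.49. The ratio stayed between 1.20 and 2.01 under every alternative run. Nearly all of its reads (4485 and 1602) lay on the coding transcript of 6537 bases, and 24 and 4 reads lay on a 1-exon transcript that retains an intron.

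Fos itself (ENSMUSG00000021250.13, chromosome 12, 85473890 to 85477273, plus strand) was the most abundant member in both libraries, at 2547 TPM in W1 and 4295 TPM in W2. The level in W2 was 1.69-fold higher (1.65 to 1.72), a log2 ratio of -0.75, which is under the 2-fold rule used here. It passed 2-fold under 1 alternative, the total without mitochondrially encoded and ribosomal protein genes (-1.05), and fell to -0.24 when only protein-coding genes formed the total. All 16267 and 27620 reads lay on the single coding transcript, and its 3 processed transcripts were at 0.

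Fosb (ENSMUSG00000003545.3, chromosome 7, minus strand, 19302696 to 19310051) had 121 reads in W1 (11.0 TPM) and 0 in W2. Against a floor of 3 reads in W2 (0.271 TPM), the level in W1 was at least 40.6-fold higher. All 121 reads were listed on a 3629-base transcript that lies in 1 exon and retains introns, with 2554 50-base sequences of its own. The 6 coding transcripts of Fosb were listed at 0 in both libraries. Of these, 5 have no 50-base sequence that is not also in another listed transcript, and the other one has 10, so their zeros do not show that spliced Fosb RNA was absent.

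In the Jun family the differences were smaller, and all 3 members stayed under 2-fold with every scaling tried. Junb (ENSMUSG00000052837.6, chromosome 8, 84974484 to 84978718, minus strand) was at 1741 TPM in W1 and 2652 TPM in W2, 1.52-fold higher in W2 (1.46 to 1.54). Its log2 ratio was -0.61 and lay between -0.90 and -0.09 under the alternatives. Jun (ENSMUSG00000052684.4, chromosome 4, 95049034 to 95052222, minus strand) stood at 197 and 276 TPM, 1.40-fold higher in W2 (1.32 to 1.48). Its log2 ratio of -0.48 changed sign, to 0.03, when only protein-coding genes formed the total. Jund (ENSMUSG00000071076.6, chromosome 8, 70698949 to 70700616, plus strand) was the Jun family member with the higher level in W1, at 1105 and 959 TPM, 1.15-fold (1.11 to 1.20). Its log2 ratio of 0.20 also changed sign, to -0.09, without mitochondrially encoded and ribosomal protein genes.

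Within Junb, a short second transcript differed from the main one. The 1809-base coding transcript stood at 1736 and 2591 TPM. The 492-base processed transcript, which has 2 exons and lies at 84974484 to 84976542, outside the coding transcript, had 7 reads in W1 and 92 in W2, or 4.70 and 61.3 TPM. It was 13.1-fold higher in W2, against 1.49-fold for the coding transcript. Of the 443 50-base sequences of the short transcript, 316 are its own when both strands are searched. Prdx2, a peroxiredoxin gene on the other strand that shares 173 exon bases with Junb, had 0 and 45 reads.

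Genes on the opposite strand overlap the other Jun family members as well. Jun shares 232 of its 3189 exon bases with Junos, at 48.9 TPM in W1 and 161 TPM in W2. Jund shares 877 of its 1668 exon bases with Gm11175, a predicted gene that was listed above Jund itself, at 1604 and 1883 TPM. The levels of Jund and Gm11175 are therefore uncertain, since it is not known whether their reads can be told apart by strand.

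The members outside both families were low. Atf3 (ENSMUSG00000026628.13, chromosome 1, 191170296 to 191218039, minus strand), a stress-induced partner of Jun proteins, was at 1.33 TPM in W1 (8 reads) and 9.91 TPM in W2 (60 reads). It was 7.45-fold higher in W2, with a wide counting interval of 3.55 to 18.04, and stayed past 2-fold under all 8 alternatives that gave a value. Batf (ENSMUSG00000034266.6, chromosome 12, 85686669 to 85709087, plus strand), which pairs with Jun proteins in lymphocytes and has no activation domain, stood at 18.7 and 42.9 TPM from 54 and 125 reads. The ratio was 2.30-fold toward W2 (1.66 to 3.23), and it was under 2-fold in 4 of 9 alternatives, down to a log2 ratio of -0.68. Maff (ENSMUSG00000042622.14, chromosome 15, 79346621 to 79359076, plus strand), a small Maf protein without an activation domain, had 2 and 3 reads, and its ratio was not measurable at this depth.

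The counting of reads limits how the levels of Atf3 and Maff are read. Only 12.8% of the 50-base sequences of the counted Atf3 transcript and 12.5% of those of the counted Maff transcript occur in no other listed transcript. For Fos the share was 66.8%, for Fosl2 74.5% over the 2 transcripts with reads, for Batf 96.4%, and for Fosl1, Jun, Junb and Jund 100%, in a search of the same strand only. With both strands searched, the own sequences were 746 of 1815 for Fosl1, 837 of 1619 for Jund, 2957 of 3140 for Jun and 316 of 443 for the short Junb transcript, and it is not known which search fits the counting. How the counting treated reads that fit several isoforms is not stated, and every member transcript with reads had at least 238 such sequences of its own. The levels of Atf3 and Maff, and without strand also those of Fosl1 and Jund, therefore cannot be ranked safely against the others. The same transcript can be set side by side in both libraries, with a limit where a gene on the opposite strand overlaps. Without strand, reads of that gene may enter the ratio between libraries too. Ccdc85b, opposite Fosl1, had 1161 and 2911 reads in W1 and W2, and Gm11175, opposite Jund, had 2322 and 2730. Their part in the ratios was not tested. Of the 28 listed transcripts, those with reads in at least 1 library were 1 each for Fos, Fosb, Fosl1, Jun, Jund, Atf3, Batf and Maff, and 2 each for Fosl2 and Junb.

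**Figure D2:**
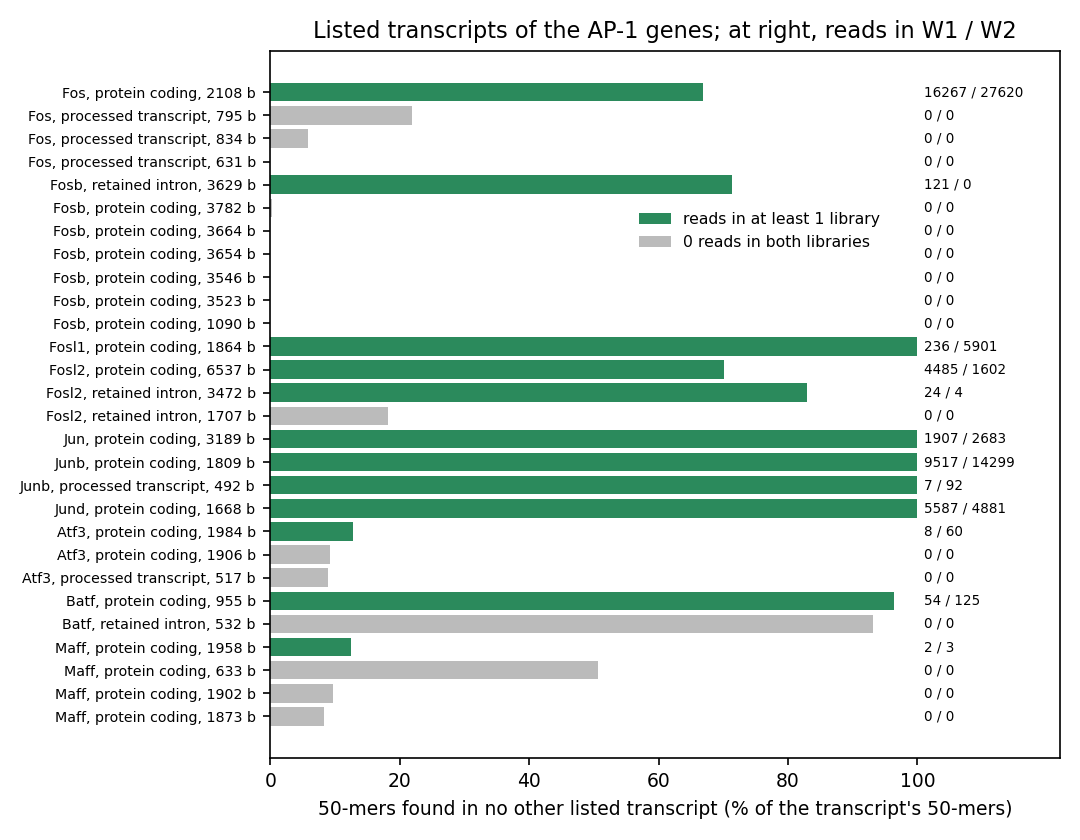
The 28 listed transcripts of the AP-1 genes, with biotype and length in bases. Bars give the percent of the transcript's 50-base sequences that occur on the same strand of no other listed transcript, green where the transcript had reads in at least 1 library, and the numbers at right are recovered reads in W1 and W2. The coding transcripts of Fosb, with bars at or near 0, have no reads, while Jun, Junb, Jund and Fosl1 reach 100% in this search, and Fosl1 (746 of 1815) and Jund (837 of 1619) less when both strands are searched.

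Together the 10 genes held 0.589% of TPM in W1 (5892 TPM) and 0.935% in W2 (9354 TPM), a sum 1.59-fold higher in W2 that ranged from 1.11-fold when only protein-coding genes formed the total to 1.95-fold without mitochondrially encoded and ribosomal protein genes. The make-up of this sum was similar for Fos and Junb and different for Fosl1, Fosl2 and Jund. Fos made up 43.2% of it in W1 and 45.9% in W2, and Junb 29.5% and 28.4%. Jund was the third in W1 (18.8%) and the fourth in W2 (10.3%). Fosl1 made up 0.709% in W1 and 11.1% in W2, and Fosl2 3.88% and 0.863%. Fosl2 has the longest transcript, and its share of the recovered reads, without a length term, was 11.8% and 2.80%. Jun stayed near 3% (3.35% and 2.95%). Fos, Junb and Jund together held 91.5% in W1 and 84.5% in W2.

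**Figure D3:**
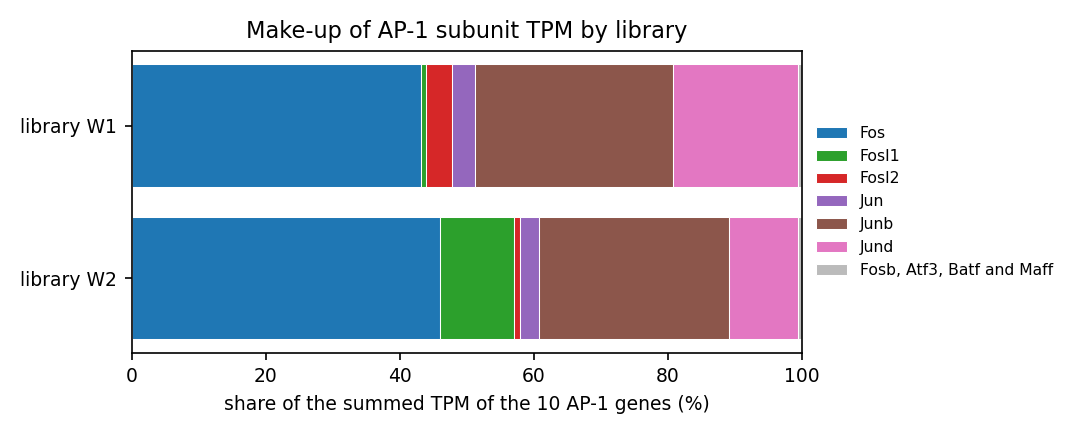
Share of the summed TPM of the 10 AP-1 genes held by each gene, in percent, for library W1 (top) and library W2 (bottom). Fos and Junb take similar shares of both bars, and the Fosl1 segment widens from 0.709% in W1 to 11.1% in W2.

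Ratios between members of the same library do not depend on how the library is scaled. Those that include Fosl1 or Jund remain uncertain, since it is not known whether the counting used strand. By listed TPM there was 1 Fosl1 transcript for 60.98 Fos transcripts in W1 and 1 for 4.14 in W2, a 14.7-fold difference. The ratio of Fosl1 to Fosl2 went from 0.183 in W1 (0.160 to 0.208 by counting error) to 12.9 in W2 (12.2 to 13.6), a 70.4-fold difference. Fos to Jund was 2.30 in W1 and 4.48 in W2, and Junb to Jund 1.57 and 2.77. Fos to Junb (1.46 and 1.62) and Jun to Junb (0.113 and 0.104) were nearly the same in both libraries. The Fos family summed to 0.929 times the Jun family in W1 and to 1.39 times the Jun family in W2. In deposited TPM the Fos family was 1.91-fold higher in W2 and the Jun family 1.28-fold. The Jun family changed side, to 0.895 times its W1 level, when only protein-coding genes formed the total, and to 0.962 without Gm23935, while the Fos family stayed higher in W2 under these (1.34 and 1.44). Both ratios were larger with mitochondrially encoded and ribosomal protein genes left out, 2.35-fold for the Fos family and 1.57-fold for the Jun family.

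Counted by the 2-fold rule on log2(TPM + 1), 9 of the 10 members reached 1 TPM in at least 1 library and could be compared. Fosl2, and Fosb by its intron-retaining transcript alone, were higher in W1, 2 of 9, where 34.7% of all 12587 genes compared were. Fosl1, Atf3 and Batf were higher in W2, 3 of 9, where 32.9% of all genes compared were. These shares lie near the background, and the counts are no result about AP-1. The other 4 lay within 2-fold, and the median log2 ratio was -0.61 beside -0.07 for all genes compared. The count in W1 was 2 under every alternative, and that in W2 was 2 to 4: Batf left it under 4 alternatives and Fos joined it under 1.

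**Figure D4:**
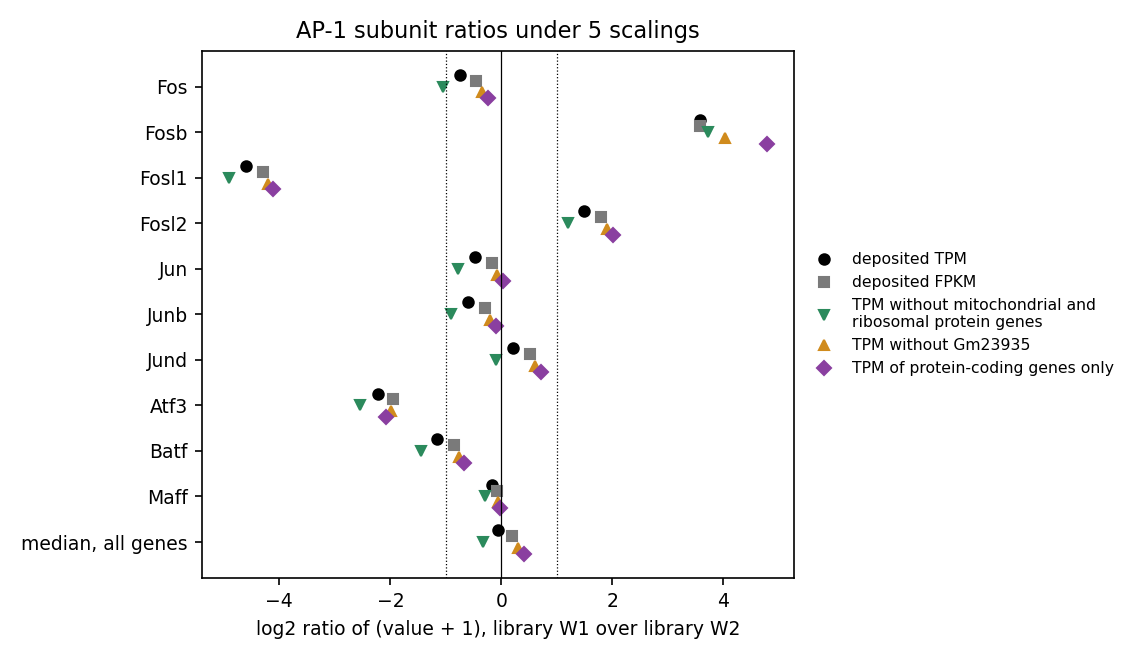
The log2 ratio of (value + 1), library W1 over library W2, for the 10 AP-1 genes and the median of all genes compared, under 5 scalings of the deposited values. Dotted lines mark 2-fold. Fosl1 and Atf3 lie left of the lower line and Fosb and Fosl2 right of the upper line under all 5, whereas Jun crosses 0 with protein-coding genes only and Jund crosses it without mitochondrially encoded and ribosomal protein genes.

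Several features of the genes were not used to choose them. Jun, Junb and Jund are each encoded in a single exon, where 4.23% of 8598 protein-coding genes compared have 1 exon. Of the 10 members, 9 hold at least 1 ATTTA in the 3′ untranslated region, the pentamer of AU-rich elements that mark short-lived RNAs, where 70.2% of 8322 such genes do. The number was highest in Fosl2, with 8 copies in 4653 bases, a count reached by 11.8% of these genes. Fos, Jun and Maff had 4 each, Atf3 had 3, Junb had 2 and Batf had 0. The longer element TTATTTATT was present in Fos, Fosl2 and Maff, and in 8.07% of these genes. The number of ATTTA did not order the members by ratio: Fosl1, the member furthest toward W2, and Jund, within 2-fold, each had 1.

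Fos and Batf lie on the same strand of chromosome 12 within 235 kb, with 4 annotated genes between them, among them Jdp2, which encodes a repressor that pairs with Jun proteins. Both Fos (2547 and 4295 TPM) and Batf (18.7 and 42.9 TPM) were higher in W2. Jdp2 had 9 reads in W1 and 1 in W2 (1.86 and 0.199 TPM), which passes the 2-fold rule toward W1 on few reads.

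Other bZIP factors, which can pair with AP-1 proteins or compete for similar sites, were divided between the libraries. Of 28 compared among 37, 10 were higher in each library, near the shares of all genes (34.7% toward W1 and 32.9% toward W2), and the median log2 ratio was -0.12 beside -0.07 for all genes. This median changed sign under several scalings, up to 0.37. The leading factors toward W1 were Maf (136 and 7.83 TPM, 17.3-fold), Creb3l2 (78.1 and 23.5 TPM, 3.33-fold), Bach1, a repressor of antioxidant genes (59.2 and 17.4 TPM, 3.39-fold), and Creb1 (5.52 and 0.431 TPM). Toward W2 they were Cebpb (668 and 2041 TPM, 3.05-fold), Cebpd (95.5 and 263 TPM, 2.76-fold), Nfil3 (105 and 320 TPM, 3.03-fold) and Nfe2l2, the activator of antioxidant genes also known as Nrf2 (117 and 246 TPM, 2.11-fold). Nfe2l2 lay close to the 2-fold line.

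Upstream of AP-1, the kinases and bound factors went both ways. Of 21 compared among 32, 4 were higher in W1, 5 in W2 and 12 within 2-fold, where 34.7% and 32.9% of all genes were higher in W1 and W2 and 4075 of 12587 lay within 2-fold, with a median of 0.00 that ranged from -0.29 to 0.51 under the alternatives. Srf, which acts on the serum response element of the Fos promoter, stood at 23.0 and 7.27 TPM, 3.16-fold higher in W1. Its cofactors of the ternary complex family lay on opposite sides: Elk3 had 452 reads in W1 and 1 in W2, and Elk1 stood at 2.33 and 16.8 TPM. Among kinases, Rps6ka3 was higher in W1 (161 and 21 reads) and Map2k5 (49 and 180 reads), Map2k3 (2.88 and 8.78 TPM) and Mapk9, which encodes the Jun kinase JNK2 (2.47 and 6.85 TPM), in W2. Map2k3 and Mapk9 rest on 20 and 26 reads in W2. Cops5, a Jun-binding protein, had 20 and 4 reads.

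The feedback list, of phosphatases and inhibitors that limit the kinases upstream of AP-1, had 8 of 15 compared members higher in W1 and 4 higher in W2, beside 34.7% and 32.9% of all genes. Its median log2 ratio was 1.48, and it was -0.16 without the filter on low values, which adds genes with few reads. Dusp2 (482 and 21.5 TPM, 22.4-fold), Spred2 (37.0 and 8.47 TPM, 4.37-fold), Spry4 (35.5 and 8.22 TPM, 4.32-fold) and Dusp1 (44.8 and 14.9 TPM) were higher in W1. Spry2 (123 and 305 TPM, 2.48-fold), Dusp7 (2 and 214 reads), Dusp10 (2.96 and 11.9 TPM, 4.01-fold) and Dusp6 (1 and 47 reads) were higher in W2. Members of the same subfamily thus lay on both sides.

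Other immediate early genes went both ways. Of 26 compared among 35, 6 were higher in W1 and 10 in W2, beside 34.7% and 32.9% of all genes. This order turned to 10 and 5 both without Gm23935 and with protein-coding genes only. Toward W2 lay Ier3 (2568 and 5201 TPM, 2.03-fold), Ier2 (605 and 1530 TPM, 2.53-fold), Gadd45b, a stress sensor (139 and 1072 TPM, 7.70-fold), and Tiparp (115 and 291 TPM, 2.54-fold). Toward W1 lay Klf2, a shear-responsive factor of endothelium (527 and 23.6 TPM, 22.3-fold), Rhob (75.9 and 27.9 TPM, 2.72-fold), Srf, which is also on the upstream list, and Klf10 (55.3 and 24.9 TPM, 2.22-fold). The median log2 ratio of -0.29 turned to 0.23 with protein-coding genes only.

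Genes known as targets of AP-1 were far apart in the libraries. Of 18 compared among 27, 8 were higher in W1, 9 in W2 and 1 within 2-fold, against 34.7% and 32.9% of all genes. The median log2 ratio was -1.21 and stayed below 0 under all alternatives, between -1.81 and -0.62. It is the midpoint between Areg (-1.81) and Hbegf (-0.62). With 8 genes toward W1 and 9 toward W2, it shows no shift of the targets as a set. Lif, among the 8, had 2 reads in W1 and 0 in W2. Toward W2 lay Hmox1, heme oxygenase (88.3 and 549 TPM, 6.21-fold), the cornified envelope gene Sprr1a (0 and 1146 reads, at least 379-fold), the growth factor receptor gene Egfr (3 and 835 reads) and the matrix gene Dcn (0 and 268 reads, at least 88.7-fold). Toward W1 lay Ccnd1, cyclin D1 (253 and 14.6 TPM, 17.4-fold), Tgfb1 (39.8 and 7.53 TPM, 5.29-fold), Mmp9 (140 and 0 reads, at least 47.0-fold) and the urokinase receptor gene Plaur (34.8 and 10.5 TPM, 3.31-fold). Dcn is also on the list of fibroblast markers.

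**Figure D5:**
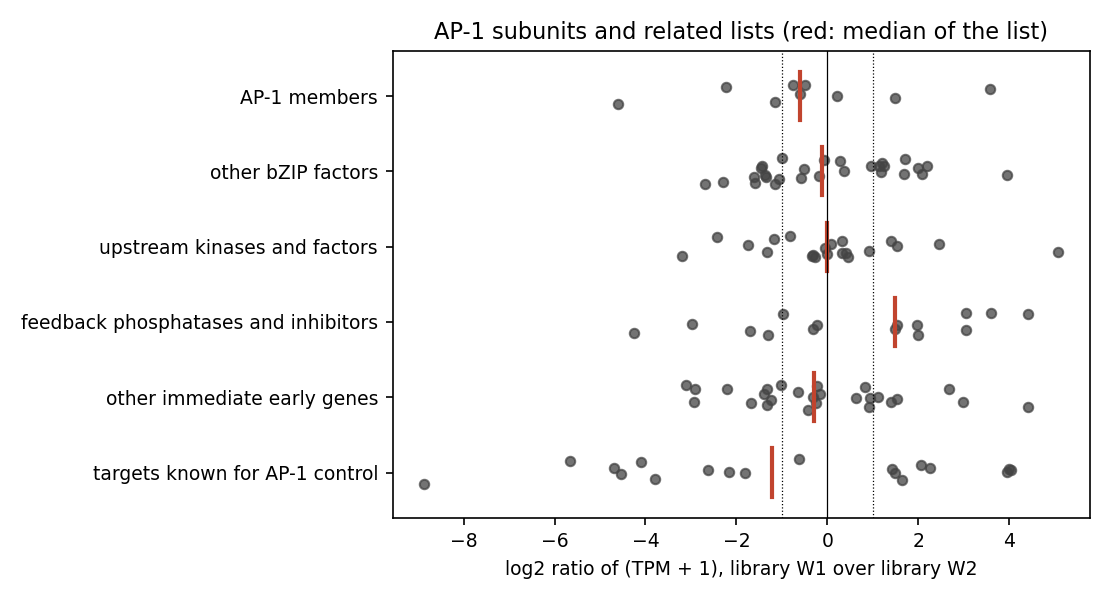
The log2 ratio of (TPM + 1), library W1 over library W2, of each compared gene (grey points, shifted at random in height) in the AP-1 members and 5 related lists, with the median of each list in red and 2-fold as dotted lines. Points lie on both sides in all 6 rows, and the feedback list has the highest median (1.48) and the targets the lowest (-1.21) with deposited TPM.

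The marker levels stand beside these values. Of all genes compared, 34.7% were higher in W1 and 32.9% in W2, and lists with few compared members say little beside these shares. The list of luminal markers had 6 of 7 compared members higher in W2 and 1, Kit (25.5 TPM and 0 reads), in W1, with sums of 31.97 and 4392 TPM. Epcam had 0 reads in W1. Endothelial markers were higher in W1 in 9 of 9 compared, with Cldn5 and Cdh5 at 6822 and 6815 reads in W1 and 0 in W2. Lymphatic markers summed to 13139 and 8078 TPM, led in each library by the chemokine gene Ccl21a (10177 and 7543 TPM). Of 6 compared, Ccl21a and Pdpn (438 and 531 TPM) lay within 2-fold and made up nearly all of the W2 sum. Lyve1 (21085 and 0 reads), Prox1 (1801 and 0 reads) and Flt4 (768 and 0 reads) were higher in W1, and Reln was higher in W2. Fibroblast markers were higher in W2 in 6 of 6, with a low sum of 206 TPM there and 3.19 TPM in W1. Of the leukocyte markers, 2 of 3 compared were higher in W1, Lyz2 and Cd79a, with sums of 88.7 and 7.17 TPM. Pericyte markers were at similar sums (59.2 and 56.6 TPM), with 1 of 2 higher in W2. Fosl1, Atf3 and Batf were thus 2-fold or more higher in the library with the epithelial and fibroblast transcripts, Batf not under every alternative. Fosb and Fosl2 were higher in the one with the endothelial transcripts. The part of these cells in the AP-1 values was not tested.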

How the data were processed

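The authors deposited TPM and FPKM values per Ensembl transcript. The submitters' processing notes name Bowtie 0.12.2 and the builds mm8 and GRCm38, with no role given. The counting tool, its annotation and whether it used strand are not stated in the sources at hand. The deposited TPM were the deposited FPKM times 1.00852 in W1 and 1.24567 in W2. Each table had 0 other value columns. Identifiers were matched to GENCODE M21 on GRCm38, which 137654 of 137767 did and 113 did not, and summed per gene. Reads were recovered as FPKM times annotated length over the value of 1 read, and 98.5% and 98.1% of transcripts above 0 came out whole within 0.1 read.

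Ratios are log2 of TPM + 1, which understates the change of low genes. A gene was compared where either library reached 1 TPM, and 2-fold on that scale was the threshold. A library with 0 reads was given a floor of 3 reads. Clopper-Pearson intervals at 95% for ratios and Poisson intervals for levels cover counting error only, since no molecular identifiers are named. For genes with isoforms of different length the interval on reads need not hold the ratio of TPM. It was printed for Fosl2 and Junb, where it held that ratio off centre, and not for genes of the related lists. Both libraries were left unassigned.

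The 10 members and the lists were chosen with earlier results of these data known, and support nothing on their own. In each related list, up to 4 genes a direction past 2-fold with the most reads were named, and up to 3 a marker list and direction. Other genes named (Jdp2, antisense genes, further markers) were chosen after their values were seen. Alternatives were other pseudocounts, scalings, filters and transcript choices. Those without Gm23935, with protein-coding genes only and with reads per own 50-base sequence were chosen after seeing the data. The steps were tested on simulated data. Python 3.11.15, numpy 2.4.6, pandas 2.3.3, scipy 1.17.1 and matplotlib 3.10.9 were used.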

Additional observations from a re-analysis of the deposited data

How the results depend on the processing

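No paired analysis was possible with 2 single libraries whose labels are the same apart from their titles, and no test was made. The log2 ratio of no member passed from 2-fold on one side to 2-fold on the other. Of 88 member ratios under alternatives, 57 stayed within their counting interval or, for Fosb, which has none, past 2-fold toward W1 (1.68 to 6.79), and 31 moved further. Among these ratios, 2 changed sign, both under 2-fold: Jun with protein-coding genes only (0.03) and Jund leaving out mitochondrially encoded and ribosomal protein genes (-0.09). The median of all genes, -0.07, was 0.29 without Gm23935, 0.40 with protein-coding genes only, 0.19 in FPKM and -0.34 when mitochondrially encoded and ribosomal protein genes were left out.

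Of 126 counts, 113 stayed within 1.5 times the main value. With a pseudocount of 5, 2112 genes were higher in W1 and 2509 in W2, as were 4 other bZIP factors and 5 AP-1 targets in W1 and 3 upstream genes in W2. Among genes with at least 20 reads, 2664 were higher in W1. With protein-coding genes only, 6 other bZIP factors and 3 upstream genes were higher in W2, and 10 and 5 other immediate early genes in W1 and W2. Without Gm23935 those were 10 and 5 too, and in reads scaled by library size alone 3 upstream genes were higher in W2. The cause of these changes was not tested beyond the construction of each setting. The share of calls that lay toward W1 was 51.3% and ranged from 45.7% to 59.9%. Fos, Junb and Jund together held 82.1% of AP-1 reads in W1 and 81.9% in W2 without a length term, and 92.9% and 86.3% in reads per own 50-base sequence. Of 66 shares, 29 stayed within their counting interval and 37 moved further. Depth limits Maff, Atf3 and Jdp2, with 2, 8 and 9 reads in W1.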
